A study of Homo sapiens with 4 samples.

Results

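The cytosolic ribosomal protein genes were followed in FaDu, an established squamous carcinoma line of the hypopharynx, with the copies of these genes that carry similar names. Members were all rows of the deposited table whose symbol begins with RPL, RPS or RPLP and a number, without the S6 kinases, the Y-linked S4 genes and hyphenated read-through symbols. This gave 110 of 25548 gene symbols, namely 76 canonical genes, 9 paralogues ending in L or L1, 24 pseudogenes and RPS19BP1, which encodes a protein that binds S19 and is no ribosomal protein. The canonical genes comprised 43 of the large subunit, 3 of its stalk and 30 of the small subunit. RPSA and FAU, which also encode ribosomal proteins, do not match the symbol rule and are described with the other lists.

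Polyadenylated RNA was sequenced with a stranded kit from FaDu cells given vehicle, labelled DMSO only, or Aza and TSA. Aza (5-aza-2'-deoxycytidine) traps DNA methyltransferases, so that methylation is lost as cells divide, and TSA (trichostatin A) inhibits histone deacetylases. For the treated library, Aza was given at 5 µM on each of days 1, 2 and 3 and TSA at 100 nM on the last of them. The control received the vehicles of these drugs, DMSO and ethanol. Each group is 1 library of a cell line, so no difference below has a replicate check and no p-value is given. Values are FPKM, fragment counts scaled for transcript length and library size, so levels can be set beside each other between genes. The columns sum to 491963 FPKM (DMSO) and 516692 FPKM (treated), and the number of reads behind them is unknown.

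All 76 canonical genes reached 10 FPKM in both FaDu columns, with medians of 671 and 635 FPKM. In the columns of the other line, UMSCC47, the same rows had medians of 1.96 and 0.934 FPKM, and 21 and 16 of them reached 10 FPKM. The UMSCC47 columns may therefore not follow the gene names of the rows. They were not used, and the comparison was restricted to FaDu from the outset. All 7 squamous epithelial markers checked were above 1 FPKM in both FaDu libraries, and they summed to 998 and 591 FPKM. KRT5 went from 687 to 226 FPKM, TP63 from 73.7 to 23.2, DSG3 from 22.1 to 3.16 and EPCAM from 86.1 to 62.7. KRT14 went from 49.8 to 147 FPKM, KRT6A from 15.2 to 30.7 and CDH1 from 64.7 to 98.7. Markers of leukocytes summed to 14.7 and 56.3 FPKM, most of it CD68, those of endothelium to 0.943 and 3.73, and those of fibroblasts to 0.794 and 3.65. Their part in the results below was not tested.

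The ribosome is built from a small subunit, which decodes the messenger RNA, and a large subunit, which joins amino acids. Most ribosomal proteins are present in the ribosome in equal number. Their messengers typically carry a 5′ terminal oligopyrimidine tract (TOP), a C followed by further C or U, through which their translation is regulated together. Some canonical genes have paralogues expressed in few tissues, such as RPL10L in the testis and RPL3L in striated muscle. The genome also holds many processed pseudogenes of these messengers, some so alike that short reads cannot be assigned to one or the other.

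The start sites of the members are shown first because the TOP is the sequence that canonical genes share. RefSeq start sites (GRCh38.p14) were matched for 61 canonical genes. Of these, 45 (73.8%) had a C followed by 4 bases of C or T at an annotated start, against 5.14% of all 27305 symbols with an entry. Within 5 bases of a start, on the coding strand, 52 (85.2%) had it, against 25.2%. Among the 67 mitochondrial ribosomal protein genes matched, 6 (8.96%) had it at the start. The windows below run from 10 bases before to 10 bases after the start on the coding strand, with the tract found by this search in capitals. They show both canonical genes called at 2-fold below, 4 others with wide changes, chosen after their values were seen, and RPL10L.
RPLP2 (chr11:809957-809976, plus strand): tcggcgccttCCTTTTCCTC
RPLP1 (chr15:69452808-69452827, plus strand): ggcgcgagagCCCCTTTCCT
RPS15 (chr19:1438386-1438405, plus strand): aggcgcggaccaaagcgatc
RPS24 (chr10:78033853-78033872, plus strand): aatcgtggttCTCTTTTCCT
RPL22 (chr1:6199586-6199605, minus strand): cgctcacctcCCTTTCTaac
RPS29 (chr14:49598701-49598720, minus strand): agcgcgcagctggcagcggt
RPL10L (chr14:46651772-46651791, minus strand): gtagttaagagagcgcattt

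RPLP2, the canonical gene with the largest increase, and RPS24, the one with the largest decrease, both hold a tract in this window. RPS15 and RPS29, which lay on opposite sides of 0, do not. Genes were divided by their annotated starts alone, and the starts used in FaDu were not measured. The 52 genes with a tract at or near an annotated start had a median log2 change of −0.07 (range −1.15 to 1.17). The 9 without one there had a median of −0.34 (−0.86 to 0.74). The first set had a median transcript GC content of 51.3% and the second of 47.6%. After subtraction of the GC trend described below, the medians were −0.31 and −0.25.

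Canonical ribosomal protein messengers remained abundant in the treated library, and few moved by as much as 2-fold. The change of a gene is given as log2((treated FPKM + 1)/(DMSO FPKM + 1)), and a call of higher or lower needs a 2-fold difference on that scale. One canonical gene, RPLP2, was called higher and one, RPS24, lower, while 74 stayed within 2-fold. Of all 13558 measured genes, those that reached 1 FPKM under either condition, 16.1% were called higher and 5.21% lower. Among the 2138 genes at or above the DMSO level of the lowest canonical gene the shares were 6.27% and 8.09%, and 1 of 76 in each direction is below both. Without a GC correction 2178 measured genes were higher and 706 lower. Over the 11573 of them with a GC value, 1867 were higher and 560 lower before subtraction of the GC trend and 853 and 515 after it. The canonical genes had a median log2 change of −0.11, with 44 below 0 and 32 above, against 0.13 for all measured genes and −0.07 for the 2062 other genes at or above that level. The interquartile range of the change was 0.68 for the canonical genes and 0.88 for those other genes. The other genes were not matched for level, with a median of 60.4 FPKM under DMSO against 671 for the canonical genes. With each column scaled to TPM, 52 were below 0. With the median of all measured genes, 0.13, set to 0, 55 were below it.

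**Figure D1:**
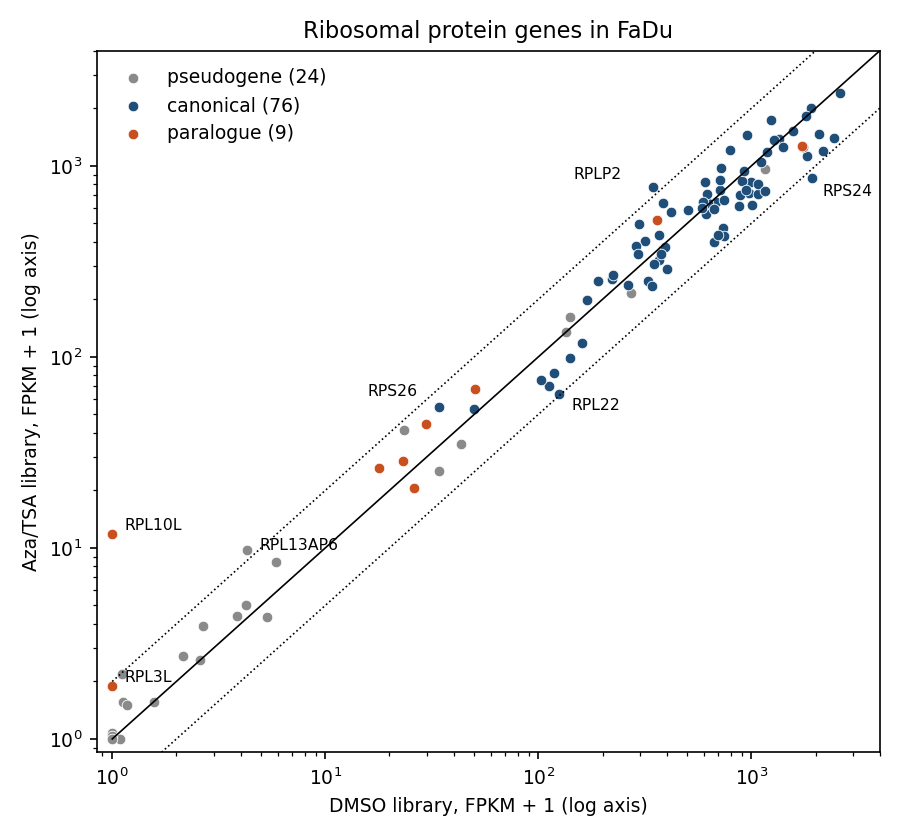
FPKM + 1 in the DMSO library (horizontal, log axis) and the Aza/TSA library (vertical, log axis) for 109 members, 1 point per gene. The solid line marks equal values and the dotted lines a 2-fold difference. Canonical genes lie in the upper right, RPLP2 above and RPS24 below the dotted lines, and RPL10L lies at the left edge, at 0 FPKM under DMSO and 10.8 FPKM with Aza/TSA.

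Summed over the 76 genes, canonical messengers made up 60561 FPKM in the DMSO library (12.3% of the column) and 54242 FPKM in the treated library (10.5%). The small subunit went from 5.21% to 4.16% of the column, the large subunit without its stalk from 6.59% to 5.68%, and the stalk from 0.504% to 0.650%. These are relative measures of bulk RNA, in which fewer cells and less RNA per cell cannot be told apart. The levels of the genes kept their order between libraries, with a Spearman correlation of 0.91 across the 76 genes, which share both libraries. There were 21 canonical genes over 1000 FPKM under DMSO and 18 with Aza/TSA.

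The highest canonical gene in the DMSO library was RPL39, a short protein of the exit tunnel, at 2590 FPKM and 2397 when treated. RPL30 followed at 2429 and 1403 FPKM, RPS29 at 2159 and 1191, RPL26 at 2081 and 1469, and RPS24 at 1917 and 865. Of these 5, only RPL39 stayed within 10% of its DMSO level. At the other end RPS26 was listed at 33.0 and 53.8 FPKM, RPL36A at 49.0 and 52.0, RPL27A at 102 and 74.6, RPL17 at 111 and 69.0, and RPL21 at 118 and 81.7. Low values here need not be low expression, since copies of RPS26, RPL36A and RPL21 have rows of their own, described below.

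The stalk recruits the elongation factors to the ribosome and consists of P0, which binds the large subunit, and dimers of P1 and P2. RPLP2 was 343 FPKM under DMSO and 774 with Aza/TSA, a 2.26-fold difference. RPLP1 was 795 and 1215 FPKM, a 1.53-fold difference. RPLP0 was 1341 and 1372 FPKM. The acidic dimer genes were thus higher and their anchor was level, so the ratio of RPLP2 to RPLP0 went from 0.256 to 0.564 and that of RPLP1 to RPLP0 from 0.593 to 0.886. After subtraction of the GC trend RPLP2 was at 0.34, RPLP1 at 0.31 and RPLP0 at −0.30 on the log2 scale, and RPLP2 was no longer called.

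The 30 small-subunit genes had a standard deviation of the log2 change across genes of 0.52 and the 43 of the large subunit one of 0.36, with medians of −0.12 in both. This difference was not tested. RPS24, which has a part in processing the small-subunit rRNA, was 1917 FPKM under DMSO and 865 with Aza/TSA, 2.22-fold lower, and stayed below −1 after subtraction of the GC trend (−1.04). RPS29 was 1.81-fold lower. RPS3A was 746 and 429 FPKM, 1.74-fold lower. RPS18, which sits on the head of the subunit, was 1831 and 1120 FPKM, and RPS6, the substrate of the S6 kinases, was 1158 and 733. In the other direction RPS15 was 296 and 495 FPKM, 1.67-fold higher, and RPS26 was 1.63-fold higher. None of these except RPS24 reached 2-fold.

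In the large subunit the lower end was held by RPL22, at 125 FPKM under DMSO and 63.1 with Aza/TSA. Its log2 change of −0.97 lay just inside the 2-fold bound, and it passed the bound on the TPM scale (−1.05), with the median of all genes set to 0 (−1.10) and after subtraction of the trend on transcript length (−1.13). It moved away from the bound after subtraction of the GC trend (−0.78) and with a pseudocount of 5 (−0.93). RPL30 was 1.73-fold lower. RPL10A was 664 and 400 FPKM, 1.66-fold lower. RPL5, which with RPL11 carries the 5S rRNA and binds MDM2, was 1005 and 623 FPKM, and RPL11 was 975 and 718. The largest increase was RPL19 at 956 and 1447 FPKM, 1.51-fold higher, and RPL8, near the peptidyl transferase centre, was 721 and 969 FPKM.

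GC-rich canonical transcripts tended to be higher and GC-poor ones lower in the treated library. Across the 76 genes, which share both libraries, Pearson's r was 0.67 and Spearman's rho 0.66, described without a test. Of the 26 genes with the lowest GC content (42.6% to 47.6%) 23 were below 0, with a median of −0.50. Of the 25 in the middle (47.8% to 52.3%) 18 were below 0, with a median of −0.16. Of the 25 with the highest (52.7% to 62.4%) 22 were above 0, with a median of 0.27. Within the canonical genes length gave a weaker relation, with a rho of −0.13. They are short, with a median of 738 bases against 2411 for measured genes, so this rho covers a small part of the length range. With the length trend over all genes subtracted, the canonical median was −0.32. RPLP2 was then at 0.97 and not called, and 4 canonical genes were called lower. Among the other genes at or above the lowest canonical level, 1868 of which had a GC value, the rho with GC content was 0.59, so the relation was also present outside the ribosomal proteins.

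**Figure D2:**
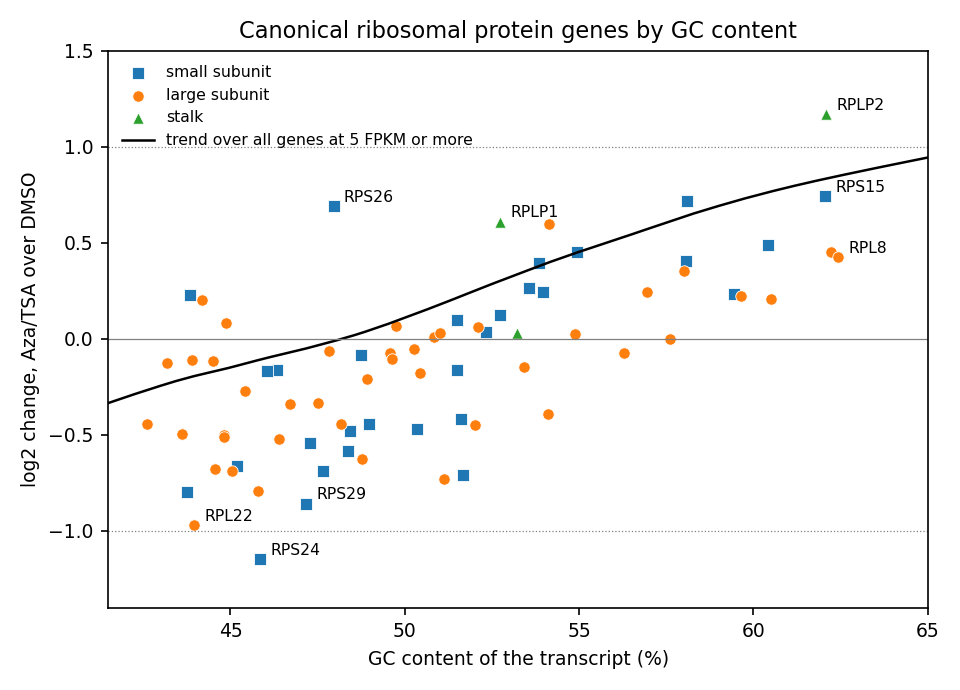
Log2 change of the 76 canonical genes (vertical) against the GC content of their transcripts in percent (horizontal), 1 point per gene. The black line is the lowess trend over all genes that reach 5 FPKM under both conditions, and the dotted lines mark a 2-fold difference. Most genes follow the slope of the line but lie under it, 63 of 76, while RPS26, RPLP1 and RPLP2 lie above.

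With the GC trend subtracted, 63 of 76 canonical genes (82.9%) lay below 0, with a median of −0.29. Among the other genes at or above the lowest canonical level 53.1% were below 0, with a median of −0.03. Those genes were matched to the canonical ones neither for level nor for length. Their medians were 60.4 FPKM under DMSO and 1788 bases, against 671 FPKM and 738 bases. Of the 13 canonical genes above 0 after subtraction, 10 had also been above 0 before it, and the highest were RPS26 (0.70), RPS23 (0.43), RPL35A (0.39), RPLP2 (0.34) and RPLP1 (0.31). The same 3 sets by GC content then had medians of −0.32, −0.25 and −0.28. One gene, RPS24, was still called lower and none higher, against 4.45% and 7.37% of the 11573 measured genes with a GC value. Of the 1868 other genes at or above the lowest canonical level with a GC value, 112 were called lower and 41 higher.

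Among the paralogues, RPL10L gave the clearest difference. It is an intronless autosomal copy of the X-linked RPL10 that serves spermatocytes, in which the X chromosome is silenced. RPL10L was listed at 0 FPKM under DMSO and 10.8 with Aza/TSA, while RPL10 was 263 and 238 FPKM. RPL10L then made up 4.33% of the summed FPKM of the pair. Of the 7788 genes listed at 0 in the DMSO library, 370 (4.75%) reached 1 FPKM when treated, and 125 had a higher treated value than RPL10L. Of the 6 members listed at 0 in the DMSO library, RPL10L alone reached 1 FPKM, and RPL13AP17 and RPS7P5 were at 0 in both.

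The coding sequences of RPL10 and RPL10L are 89.3% identical over 645 bases, and the longest run they share is 50 bases. Their first 60 coding bases are shown because they bear on whether reads of the abundant RPL10 could be placed on RPL10L. They were read from GENCODE 29 transcripts (GRCh38), with the 6 differing bases in capitals.
RPL10 (coding bases 1 to 60): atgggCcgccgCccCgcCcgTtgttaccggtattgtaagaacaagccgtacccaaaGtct
RPL10L (coding bases 1 to 60): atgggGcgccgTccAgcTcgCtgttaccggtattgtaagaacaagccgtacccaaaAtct

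The part of RPL10 reads in the RPL10L value was not tested. The 250 bases before the RefSeq start of RPL10L (GRCh38.p14, chr14:46651782-46652031, minus strand) are printed with each CG dinucleotide, the site of DNA methylation, in capitals, since Aza acts on the enzymes that methylate it.
RPL10L promoter: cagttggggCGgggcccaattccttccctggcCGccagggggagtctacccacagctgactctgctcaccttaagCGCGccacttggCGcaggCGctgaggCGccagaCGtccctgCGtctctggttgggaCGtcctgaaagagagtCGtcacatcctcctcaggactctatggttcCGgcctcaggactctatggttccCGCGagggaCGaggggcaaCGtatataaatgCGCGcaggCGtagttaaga

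This window held 19 CG dinucleotides and had a GC content of 61.6%. Canonical genes had a median of 20 CG dinucleotides in the same window (range 7 to 31), measured genes a median of 20 and all symbols a median of 11. The CG count of RPL10L thus lay within the range of the canonical genes. Methylation was not measured. Of 9 germ cell markers 3 were called higher, and the 9 summed to 1.01 FPKM under DMSO and 109 FPKM with Aza/TSA, most of it DAZL. DAZL (0 and 79.6 FPKM), MAEL (0 and 14.5) and SYCP3 (0.152 and 13.9) were those called, while PRM1, PRM2, TNP1 and ZPBP, genes of late sperm formation, were at 0 in both libraries. DDX4 was 0 and 0.424 FPKM and ACRV1 0.862 and 0.326. The part of other germ-line genes in the RPL10L value was not tested.

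RPL3L, the striated-muscle paralogue of RPL3, was listed at 0 FPKM under DMSO and 0.899 with Aza/TSA, below the 1 FPKM needed to count as measured. RPL3 was 624 and 634 FPKM. RPL3L was called higher on the TPM scale (1.45). With a pseudocount of 0.1 its log2 change was 3.32, but it still did not count as measured. It was at 0.37 after subtraction of the GC trend and 0.24 with a pseudocount of 5. The 9 muscle markers summed to 30.4 and 20.6 FPKM, most of it TNNI2 (25.1 and 13.2), with 3 and 5 of them at 1 FPKM or more. CKM (0 and 1.35 FPKM) and MYL2 (0 and 1.52) were called higher. Both lay near the 1 FPKM needed to count as measured and reached it in the treated library alone. RPL39L, a paralogue of RPL39 found in testis and in some tumours, was already present, at 25.1 FPKM under DMSO and 19.5 with Aza/TSA. RPL39 was over 100 times as high, 103-fold in the DMSO library and 123-fold in the treated library.

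A further 5 paralogues were higher in the treated library without reaching 2-fold, while their canonical genes were lower or nearly level. RPL22L1 was 22.2 and 27.5 FPKM, beside 125 and 63.1 for RPL22, so its share of the pair went from 15.1% to 30.4%. RPL7L1, which takes part in ribosome assembly, was 28.8 and 43.4 FPKM, beside 870 and 617 for RPL7. RPL26L1 was 49.4 and 66.5 FPKM, beside 2081 and 1469 for RPL26. RPS27L, a p53 target, was 16.8 and 25.2 FPKM, beside 1104 and 1042 for RPS27. RPL36AL, the broadly expressed copy of RPL36A, was 360 and 520 FPKM, beside 49.0 and 52.0, and was the larger of its pair in both libraries (88.0% and 90.9%).

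RPL10L and RPL3L, listed at 0 under DMSO, could not be lower and were left out of a count over pairs, a choice made after their values were seen. Over the other 6 pairs compared, the paralogue had the higher log2 change in 5, by 0.44 to 1.27, and RPL39L the lower, by −0.23. The median change was −0.11 over canonical genes and 0.13 over all measured genes, so a change above that of a canonical gene is not particular to paralogues. The 8 measured of the 9 paralogues had a median of 0.47 and 1 call, RPL10L, against 16.1% called higher among measured genes. RPL10L counted as measured through its treated value alone, so it could only be called higher.

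**Figure D3:**
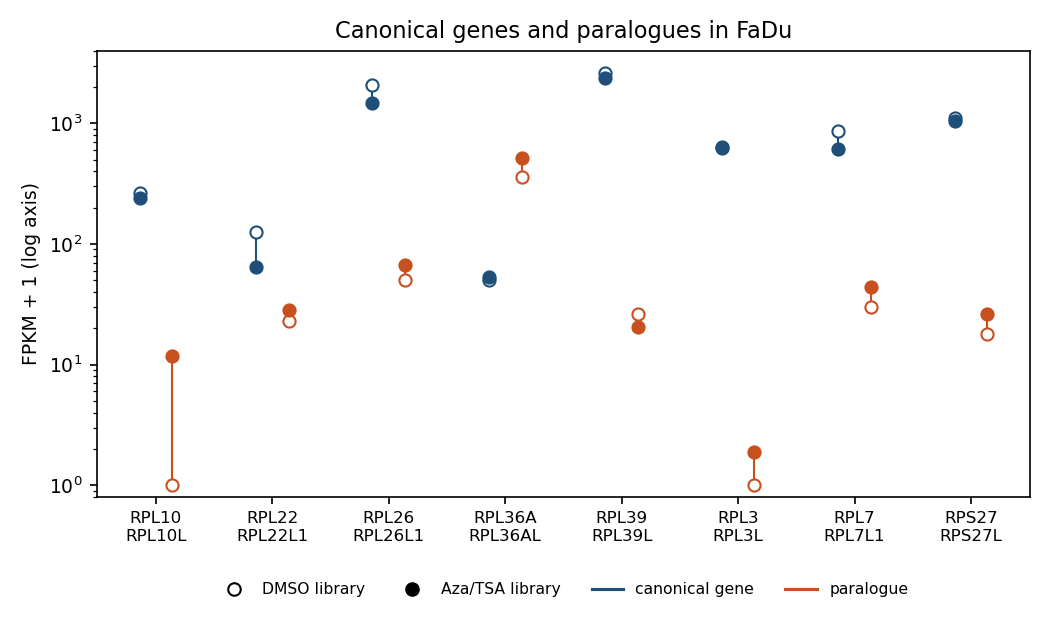
FPKM + 1 (log axis) of the canonical gene and the paralogue of 8 pairs, with open circles for the DMSO library and filled circles for the Aza/TSA library. Paralogues lie under their canonical gene except RPL36AL, and RPL10L and RPL3L start at 0 FPKM.

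Among the measured paralogues that could be aligned, the longest run shared with the canonical coding sequence was 63 bases, in RPL36AL (90.0% identical over the coding sequence). The part of reads of the canonical genes in the paralogue values was not tested. RPL39L was 94.9% identical to RPL39, with a shared run of 44 bases. RPL26L1 was 84.2% identical, RPS27L 78.0%, and RPL22L1 and RPL7L1 aligned only in part, over 74.4% and 25.4% of the coding bases. RPL3L was 76.7% identical to RPL3.

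Of the 24 pseudogenes, 16 were measured and 8 were not, among them RPL23AP53 at 0.570 and 0.556 FPKM. The measured ones had a median log2 change of 0.19, with 9 above and 7 below 0, and over all 24 the median was 0.07. One of the 16, RPL13AP6 at 3.30 and 8.79 FPKM, was called higher and none lower, against 16.1% and 5.21% of measured genes. That call ended after subtraction of the GC trend (0.69) or the length trend (0.97) and with a pseudocount of 5 (0.73). RPS2P32 was 0.107 and 1.17 FPKM, RPS26P11 22.5 and 40.5, RPL13P5 1.67 and 2.91, and RPLP0P2 4.87 and 7.45. At the lower end RPL21P28 was 33.3 and 24.3 FPKM, RPL23P8 271 and 215, RPS10P7 42.6 and 33.8, and RPL23AP7 4.34 and 3.35. Restricted to the 7 pseudogenes at 5 FPKM or more in the DMSO library, the median was −0.27.

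The pseudogenes with high values were those that share the longest identical runs with their canonical gene. Of the 7 at 20 FPKM or more under DMSO, the 6 that could be aligned share a run of 96 to 339 bases, and each of the other aligned pseudogenes one of at most 69. Overall identity separated them less, since RPL13AP6, at 3.30 FPKM, is 95.8% identical to RPL13A. RPL13AP5 was listed at 1160 and 959 FPKM, above RPL13A itself at 327 and 249. It is 99.5% identical to the RPL13A coding sequence and shares a run of 339 bases with it. RPL13AP20 (96.7% identical) was 134 FPKM in both libraries. RPL21P28 (99.4%) stood at 0.283 and 0.297 of RPL21, RPS26P11 (97.7%) at 0.682 and 0.753 of RPS26, and RPL23P8 (93.9%) at 0.273 and 0.262 of RPL23. RPL19P12, at 139 and 160 FPKM, had no transcript to compare. By contrast RPL13AP17, 78.6% identical to RPL13A, was at 0 in both libraries. Reads of such copies cannot be assigned with certainty, so each value of RPL13A, RPL21, RPS26 and their copies is uncertain. Summed with their copies, RPL13A was 1628 and 1356 FPKM and RPS26 was 55.5 and 94.4 FPKM, and the count of canonical genes called stayed at 1 higher and 1 lower.

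Other genes of the pathway were counted from lists and read against the 16.1% and 5.21% of measured genes called higher and lower. The ribosomal protein genes outside the symbol rule lay above 0: FAU, whose product carries eS30, was 203 and 359 FPKM, RPSA 549 and 671, and GNB2L1 (RACK1), a scaffold on the small subunit, 841 and 898, with a median log2 change of 0.38 over the list. None of these 4 was called. Mitochondrial ribosomal proteins, the family most like the cytosolic one, had 3 of 76 called higher and 4 lower, with a median of −0.10. Their widest changes were MRPL55 at 9.21 and 32.6 FPKM, MRPS12 at 12.3 and 34.2, and MRPL1 at 16.3 and 6.29. With the GC trend subtracted their median was −0.24, beside −0.29 for the cytosolic genes, none was called higher and 3 lower, and none of these named genes was called.

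Ribosome assembly genes had medians on both sides of the 0.13 of all measured genes. Of 38 small-subunit and processome factors 5 were called higher and none lower, with a median of 0.05 that was 0.24 after subtraction of the GC trend. NOL6 was 9.21 and 27.4 FPKM, RRP12 8.47 and 24.6, and TBL3 8.02 and 19.0. Of 37 large-subunit assembly factors 3 were higher and 1 lower, and their median was 0.26 (0.23 after subtraction). EIF6, which keeps the subunits apart until assembly is complete, was 79.8 and 219 FPKM, NOC4L 11.0 and 30.9, and BOP1 10.6 and 24.2. Of 20 RNA polymerase I genes 2 were higher, POLR2L at 55.2 and 128 FPKM and POLR2E at 12.7 and 30.1, both shared with other polymerases, with a median of 0.28. Of 16 snoRNP, nucleolar and chaperone genes 2 were higher, AAMP at 25.8 and 67.5 FPKM and RPS19BP1 at 41.6 and 102, with a median of 0.27. None of the genes in these 4 lists with a GC value (36 of the 37 large-subunit factors and all of the others) was called in either direction once the GC trend was subtracted.

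The elongation factors and other TOP messengers had a median of −0.24 (−0.43 after subtraction of the GC trend, with 17 of 21 below 0). VIM, at 0.0616 and 1.60 FPKM, was the 1 called higher, and EIF3E, an initiation factor subunit, the 1 called lower, at 407 and 174. NAP1L1, a histone chaperone, was 95.7 and 51.0 FPKM. Of 30 initiation factor genes 3 were higher and 1 lower, and their median was 0.09, among them EIF3G at 41.1 and 98.5 FPKM, EIF2B4 at 5.15 and 12.5, and EIF2A at 54.4 and 22.4. After subtraction of the GC trend that median was 0.16, and 1 of the 30 initiation factor genes was called higher and 1 lower. None of the genes named from these lists was called then. Differences between the lists were not tested.

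**Figure D4:**
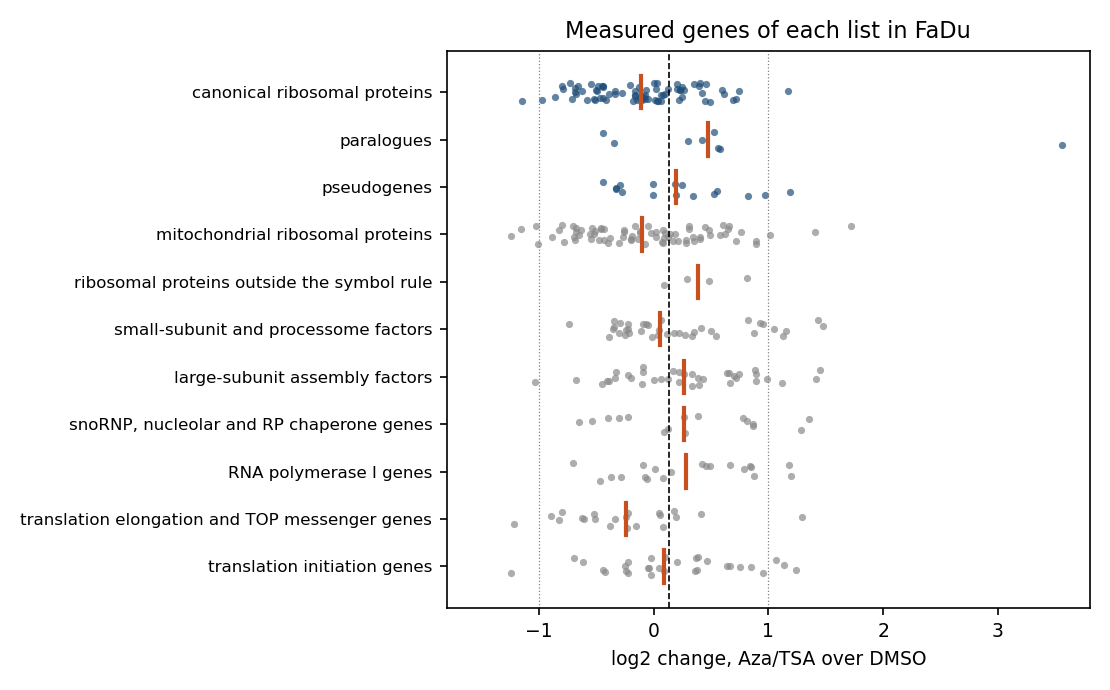
Log2 change of the measured genes of each list (horizontal), 1 point per gene with vertical jitter. Orange bars mark list medians, the dashed line the median of all measured genes (0.13) and the dotted lines a 2-fold difference. The canonical genes, mitochondrial ribosomal proteins and TOP messengers have medians below 0, the other lists above it, and RPL10L lies far to the right.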

How the data were processed

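The authors deposited 1 table of FPKM per gene symbol with a column per library, per the file headers. TopHat 1.3.2, Cufflinks 2.0.2 and hg19 are named in the submitters' processing notes. The annotation and filters were not given in the sources used here, and the depth is unknown. The 45 repeated rows were summed. Changes used a pseudocount of 1 FPKM, genes counted as measured from 1 FPKM under either condition, and calls needed a 2-fold difference.

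GC content and length were medians over GENCODE 29 basic transcripts (98.2% of members matched). The GC trend was a lowess fit (fraction 0.3, statsmodels 0.14.6) over 6645 genes that reach 5 FPKM under both conditions. The fit was run on simulated data with a straight-line GC trend, planted changes and less scatter than these data. What underlies the GC relation in these data was not tested. Copies were aligned locally with Biopython 1.88. RefSeq promoters cover 250 bases before to 50 after a start.

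The members and lists were chosen with earlier results of these data known. Some members and 1 gene of a list are not reported here, though they stay in the counts, sums and medians, and 1 pair was left out of the comparison of pairs. Otherwise, genes named are all paralogues with their canonical genes, the canonical genes at the extremes of level or change (5 and 6 at each end), the stalk genes, the 5 most extreme pseudogenes by level and change, and up to 3 genes per list with the widest change. RPL5, RPL8, RPL11, RPL13AP17, RPL23AP53, RPS7P5, RPS6, RPS10, RPS18, RPS23, RPL35A and GNB2L1 were named after their values were seen. The background at the lowest canonical level, the levels of 20 and 1000 FPKM and the 5-base window around starts were also chosen then. Alternatives were pseudocounts of 0.1 and 5, no filter, a filter at 5 FPKM, TPM, median centring, the highest repeated row, sums with copies, leaving out values under 0.01 FPKM, pseudogenes at 5 FPKM under DMSO, and subtraction of GC or length trends.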

Additional observations from a re-analysis of the deposited data

How the results depend on the processing

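With 1 library per group, 2-fold calls stand in for tests, and a median counted as moved if it shifted by over 1.5-fold or changed sign to at least 0.1, a rule set after values were seen. Of 144 comparisons of medians and counts with an alternative, 123 did not move. Some of these could not move. Every canonical gene was at or above 33.0 FPKM under DMSO and 52.0 with Aza/TSA. Changes of the filter and leaving out values under 0.01 FPKM therefore left the canonical values as they were. Taking the highest repeated row did not change them either. The rule was also wide for medians this near 0. The canonical median of −0.11 counted as unmoved at −0.29 after the GC trend and −0.32 after the length trend. The count of 123 is thus no measure of stability. The canonical median kept its sign throughout, between −0.32 and −0.09 (the latter when summed with copies). Canonical genes called lower were 2 with TPM scaling, 2 with median centring and 4 after subtraction of the length trend, and none was called higher after subtraction of the GC or length trend. Paralogues called higher were 2 with TPM. Pseudogenes called higher were 2 with a pseudocount of 0.1 or TPM, and 0 with a pseudocount of 5, after the GC or length trend and among those at 5 FPKM or more in the DMSO library, whose median was −0.27. In the pathway lists 8 were called higher with a pseudocount of 5, against 16. After the GC trend 1 was higher and 1 lower, both initiation factor genes, against 16 and 3. Over all genes 893 were higher and 253 lower with a pseudocount of 5, 853 higher after the GC trend, and 1182 and 1152 lower with a pseudocount of 0.1 and TPM. For these the cause was not tested. No library could be left out. No paired analysis was possible because each group holds 1 library. Absolute depth is unknown, so values near 0 carry an unknown counting error.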

Other observations

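Read-through symbols joined a ribosomal protein gene to its neighbour and were left out by the hyphen in their names. RPL36A-HNRNPH2 was 44.3 FPKM under DMSO and 30.4 with Aza/TSA, close to the 49.0 and 52.0 FPKM of RPL36A itself. RPL17-C18ORF32 was 13.8 and 9.07 FPKM, and RPS10-NUDT3 was 11.4 and 3.03, with RPS10 at 222 and 267. Each of these rows shares exons with the single gene, so their reads cannot be told apart with certainty.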
